A study of Mus musculus with 6 samples.

Results

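Core genes of the circadian clock were followed in mouse mesenchymal stem cells exposed to terahertz light: Nr1d1, Nr1d2, Rora, Dbp, Tef, Per1, Per2, Per3, Arntl and Clock, 10 of the 18193 genes read by the arrays. Each gene was read by the brightest of the probe sets that the platform annotation gives to that gene alone, and its remaining probe sets served as checks. The 10 genes were picked because an earlier list of clock genes lay evenly below 0 in irradiated minus control cultures in every experiment. For these genes that contrast is therefore described with no test. The members were tested only on the difference between experiments, which did not enter the choice.

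The irradiated group held 1 culture from each of 3 independent experiments, lit for 2 h by a continuous gas laser at 2.52 THz (118.8 µm), which is far-infrared light. The control group held the unexposed culture that stood next to it in the same experiment. Irradiated and control cultures were both held at 26 to 27 °C, were both grown in 5% serum and had both received 1 µM rosiglitazone, 5 µg/ml insulin, 100 µM isobutylmethylxanthine and 1 µM dexamethasone, added again 48 h earlier. RNA was taken at the end of the exposure and each culture was read on 1 Affymetrix array, giving 3 irradiated and 3 control arrays. The cells came from 1 commercial source, no culture without the 4 compounds was compared, and time of day was not used here.

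The mammalian clock is a transcriptional loop that runs in most cells, fibroblast-like and fat cells included. CLOCK and ARNTL (also called BMAL1) bind E-box sequences and switch on the Per, Cry, Nr1d and PAR bZIP genes, and PER and CRY proteins then inhibit CLOCK and ARNTL. In a second loop NR1D1 and NR1D2 (REV-ERB alpha and beta) repress Arntl, and RORA, which binds the same sequence, activates it. In cultured cells each cell has its own phase, and dexamethasone, serum and agents that raise cyclic AMP are widely used to set many cells to 1 phase. Per1 is a direct target of the glucocorticoid receptor.

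The DNA that these proteins read is shown for 4 members, chosen because their promoters hold the letters of the E-box or of the D-box, the sequence bound by DBP and TEF. Each line gives the 250 bases before a RefSeq start site (GRCm38.p6), written 5′ to 3′ along the gene, with motif matches in capitals.
Nr1d1, chr11:98775378-98775627, minus strand: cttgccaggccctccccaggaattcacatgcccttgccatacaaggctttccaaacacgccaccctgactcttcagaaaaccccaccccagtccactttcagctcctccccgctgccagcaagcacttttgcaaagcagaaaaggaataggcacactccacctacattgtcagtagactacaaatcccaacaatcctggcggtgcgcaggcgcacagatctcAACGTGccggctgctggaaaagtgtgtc
Tef, chr15:81811164-81811413, plus strand: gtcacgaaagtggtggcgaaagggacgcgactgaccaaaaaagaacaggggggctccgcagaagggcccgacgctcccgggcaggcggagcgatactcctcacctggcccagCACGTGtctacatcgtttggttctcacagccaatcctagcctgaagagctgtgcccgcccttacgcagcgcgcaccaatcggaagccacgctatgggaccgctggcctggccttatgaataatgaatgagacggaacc
Per1, chr11:69098699-69098948, plus strand: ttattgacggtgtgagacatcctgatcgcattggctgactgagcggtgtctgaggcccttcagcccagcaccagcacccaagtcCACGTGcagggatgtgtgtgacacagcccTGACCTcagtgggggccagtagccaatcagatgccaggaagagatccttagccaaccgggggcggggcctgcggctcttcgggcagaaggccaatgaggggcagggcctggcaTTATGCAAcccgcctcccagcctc
Per3, chr4:151044666-151044915, minus strand: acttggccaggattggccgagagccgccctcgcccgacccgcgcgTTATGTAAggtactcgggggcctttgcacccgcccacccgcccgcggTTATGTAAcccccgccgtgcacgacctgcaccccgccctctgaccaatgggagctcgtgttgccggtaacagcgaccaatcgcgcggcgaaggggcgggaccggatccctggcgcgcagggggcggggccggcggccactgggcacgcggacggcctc
The motifs searched on both strands were the E-box CACGTG, its variant CACGTT, the nuclear receptor core AGGTCA that NR1D and ROR proteins recognise, and the D-box forms TTATGTAA and TTATGCAA. No match overlapped another. Nr1d1 held CACGTT on the reverse strand at bases -28 to -23 from its start. Tef held CACGTG at -138 to -133 here and at -127 to -122 before its other start site. Per1 held CACGTG at -166 to -161, AGGTCA on the reverse strand at -137 to -132 and TTATGCAA at -24 to -17, and Per3 held TTATGTAA at -205 to -198 and at -158 to -151. In 32851 such windows of all genes, 6.02% held CACGTG, 3.85% CACGTT, 14% AGGTCA, 0.819% TTATGTAA and 0.694% TTATGCAA. Per2 had no window. The other 9 members had 14 windows, and 6 of the 9 held at least 1 motif in any window. AGGTCA was in Nr1d2 and in 1 of 3 windows of Clock. Rora, Dbp and Arntl held none of these exact motifs in their windows. Bases after the start site or further upstream were not searched, so a site there would be missed. The shares above are per window and per motif. The share of all genes with any motif in any window was not computed, so 6 of 9 is no sign of enrichment. A match is only a match of letters, and no binding was measured.

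The cultures were bright for stromal and fat-cell genes and also for macrophage genes. Of the measured markers, 7 of 8 mesenchymal stromal genes, 5 of 5 fat-cell genes and 6 of 6 macrophage and blood genes reached the median gene level of 6.46, against 0 of 3 endothelial and 1 of 2 epithelial genes. The stromal marker Thy1 was dim, at 3.88. The array medians lay between 5.01 and 5.04. The control array of experiment 3 stood apart in RNA quality, where the 3′ control probe set of actin exceeded the 5′ one by 0.68, against 0.50 to 0.57 on the other 5 arrays. For Gapdh that difference was 0.11 on this array, where the others lay between -0.10 and -0.08.

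All levels below are log2 RMA values, and differences are irradiated minus control in log2 units. Of the 10 members 8 reached the median gene level, and Per2 (6.28) and Per3 (5.45) were below it. Brightness reflects how well a probe set binds as well as how much transcript there is, so a level places a gene on the array's scale only, and no ratio between genes was drawn. In bulk RNA, fewer cells of a type and less RNA per cell cannot be told apart.

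Among the receptors of the second loop, Nr1d1 and Rora were lower in the irradiated culture of every experiment, and Nr1d2 was not. Nr1d1, the repressor REV-ERB alpha, read 7.18, 7.22 and 7.55 in irradiated cultures of experiments 1 to 3, against 7.28, 7.40 and 7.66 in their controls. Its difference was -0.13 ± 0.044 (SD, n = 3 experiments), or 0.914-fold. The groups overlapped, because experiment 3 was high in both cultures. Rora, the activator, read 9.32, 9.19 and 9.16 in irradiated cultures, against 9.51, 9.43 and 9.35 in controls. The difference was -0.21 ± 0.029 (SD, n = 3), or 0.867-fold, which had the smallest spread over experiments of the 10 members, and no irradiated culture reached the lowest control. Nr1d2, or REV-ERB beta, read 9.72, 9.68 and 9.89 in irradiated cultures, against 9.67, 9.48 and 9.90 in controls. Its difference of 0.08 ± 0.11 (SD, n = 3) lay on the other side of 0 from that of its paralog, with overlapping groups.

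Rora was read by 9 probe sets, and the brightest was not typical of them. Mean differences ran from -0.27 to 0.010, with a median of -0.10, and 8 of 9 were below 0. Only the brightest and 1 dimmer probe set (level 5.68, at -0.17, -0.40 and -0.23) were below 0 in all 3 experiments. Of the 5 probe sets at or above the median gene level, the next brightest (8.73) stood at 0.11, 0.06 and -0.14. Averaged over all its probe sets Rora differed by -0.11. Nr1d1 had only 1 probe set, so its difference has no such check.

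**Figure D1:**
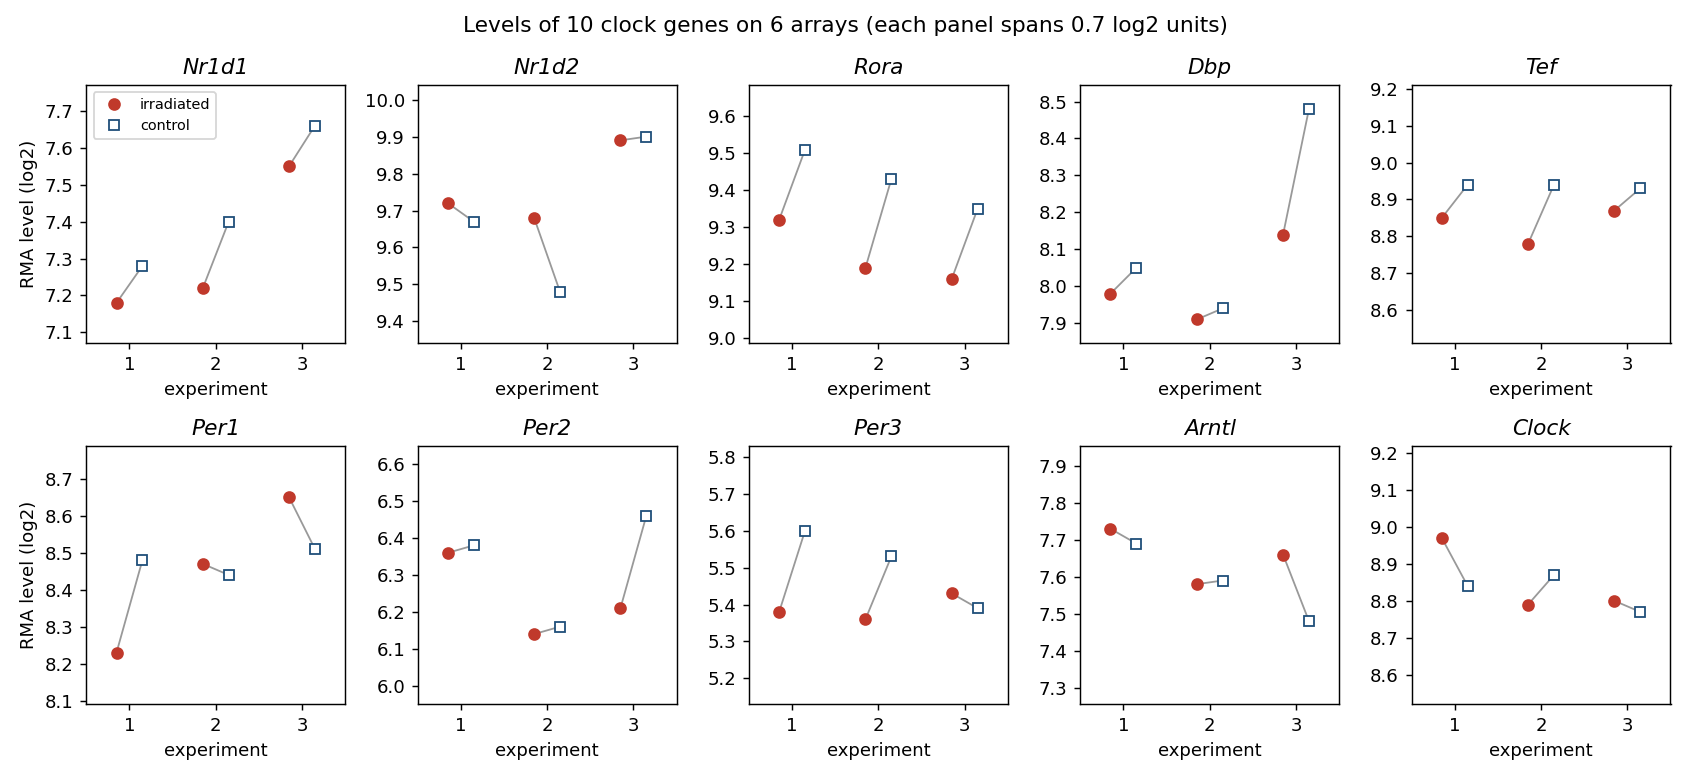
RMA levels (log2, vertical axes) of the 10 clock genes in experiments 1 to 3, with filled circles for irradiated cultures, open squares for controls and a line joining cultures of 1 experiment. All 3 lines rise towards the control for Nr1d1, Rora, Dbp, Tef and Per2, and only Rora and Tef have every irradiated culture below every control.

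The PAR bZIP factors, which bind D-boxes and carry the rhythm to output genes, were both below their own control in every experiment. Dbp, whose transcript follows CLOCK and ARNTL activity with a large amplitude in many tissues, read 7.98, 7.91 and 8.14 in irradiated cultures, against 8.05, 7.94 and 8.48 in controls. The difference was -0.15 ± 0.17 (SD, n = 3), and most of it came from experiment 3, at -0.34, against -0.07 and -0.03 in experiments 1 and 2. The groups overlapped, as the irradiated culture of experiment 3 lay above the controls of experiments 1 and 2. Experiment 3 is the one whose control array stood apart in RNA quality, and the part of RNA quality in this value was not tested. The other probe set of Dbp gave -0.12, -0.02 and -0.32 in the 3 experiments. Tef read 8.85, 8.78 and 8.87 in irradiated cultures, against 8.94, 8.94 and 8.93 in controls. Its difference was -0.10 ± 0.051 (SD, n = 3), and every irradiated culture lay below every control. Both dimmer probe sets of Tef stood near 0, at 0.020 and -0.020.

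The Period genes, whose proteins inhibit CLOCK and ARNTL, did not move together over experiments. Per1 read 8.23, 8.47 and 8.65 in irradiated cultures, against 8.48, 8.44 and 8.51 in controls. Its differences of -0.25, 0.03 and 0.14 ran in both directions and averaged -0.027 ± 0.20 (SD, n = 3). Per2 read 6.36, 6.14 and 6.21 in irradiated cultures, against 6.38, 6.16 and 6.46 in controls. Its differences were -0.02, -0.02 and -0.25, so that, like Dbp, it was furthest from 0 in experiment 3, and its dimmer probe sets averaged 0.0033 and 0.12. Per3 read 5.38, 5.36 and 5.43 in irradiated cultures, against 5.60, 5.53 and 5.39 in controls. Its difference was -0.12 ± 0.14 (SD, n = 3), and of its 6 probe sets 3 averaged below 0 and 3 above.

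The E-box activators were close to 0 or slightly higher. Arntl read 7.73, 7.58 and 7.66 in irradiated cultures, against 7.69, 7.59 and 7.48 in controls, a difference of 0.070 ± 0.098 (SD, n = 3). Clock read 8.97, 8.79 and 8.80 in irradiated cultures, against 8.84, 8.87 and 8.77 in controls, a difference of 0.027 ± 0.11 (SD, n = 3). Both had overlapping groups. The other 3 probe sets of Clock averaged -0.080, -0.057 and -0.21, so its direction depended on the probe set, whereas the other probe set of Arntl was at 0.050.

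Over the 10 members the median difference was -0.10, beside -0.010 over all 18193 genes. The members' mean was -0.072, -0.066 and -0.057 in experiments 1 to 3, an even shift of the kind for which they were picked. Their median was less even, at -0.08, -0.055 and -0.035. The mean over all genes was -0.016, -0.0078 and 0.0020. Over genes at or above the median level it was -0.049, -0.0023 and 0.0051, so in experiment 1 bright genes in general also lay below 0. The member furthest below 0 was Per1 in experiment 1, Rora in experiment 2 and Dbp in experiment 3. Below 0 in all 3 experiments were 5 of 10 members (Nr1d1, Rora, Dbp, Tef and Per2), where 12.8% of all genes were, and above 0 in all 3 were 0 of 10, where 8.23% of all genes were. Irradiated and control arrays did not overlap in 2 of 10, all lower, where 5.36% of all genes were lower in this way. The members' counts follow from the choice of the genes and are given as a description. With each array centred on its median, 3 of 10 members were below 0 in all 3 experiments, beside 9.82% of all genes. Over all 33 probe sets of the members, 22 averaged below 0 and 11 above, with a median of -0.037. In the fit across all genes (limma with the experiment as a block, Benjamini-Hochberg) 0 of 18193 genes passed (0%), with 603 (3.31%) at an unadjusted p under 0.05. This is background, and nothing is read from it for the members.

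**Figure D2:**
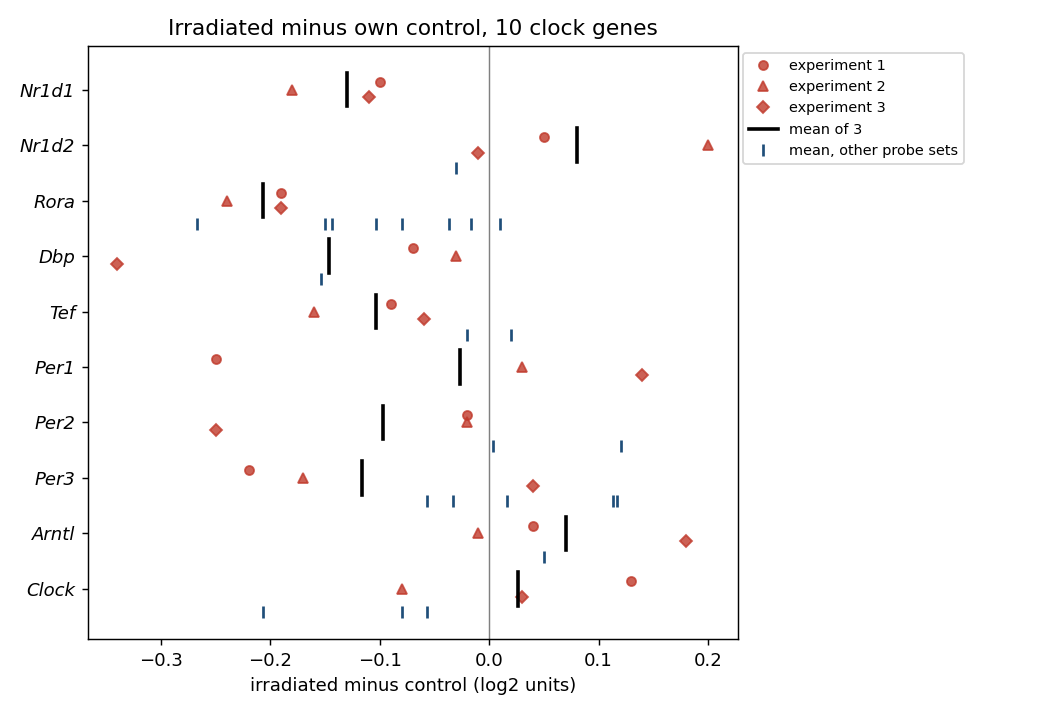
Irradiated minus own control in log2 units (horizontal axis) for the 10 clock genes, with 1 red marker per experiment, a black bar for the mean of the 3 and blue ticks for the means of a gene's other probe sets. The means run from -0.21 for Rora to 0.080 for Nr1d2, and all blue ticks of Nr1d2, Per2 and Clock, and some of Rora, Tef and Per3, lie on the other side of 0 from the black bar.

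Genes of the wider clock network are set beside all genes. The members were picked on this contrast, so their distance from 0 is no measure for the wider network. The median difference of 29 other clock genes, grouped by role, was -0.017, beside -0.010 over all 18193 genes. Of the 29, 18 averaged below 0 and 11 above, where 9739 of 18193 genes averaged below 0. The mean of the 29 was -0.051 and -0.056 in experiments 1 and 2 and 0.038 in experiment 3. None of the 29 was below 0 in all 3 experiments, where 12.8% of all genes were, or above 0 in all 3, where 8.23% were. The fit across all genes called 0 of them, as it called 0 of 18193 genes. Of 10 partners and paralogs 4 averaged below 0 and 6 above. Cry2, which represses CLOCK and ARNTL together with the PER proteins, was at -0.13 ± 0.12 (SD, n = 3), while its paralog Cry1 was at 0.010 ± 0.22. Nfil3, a repressor that competes with DBP and TEF for D-boxes, was at -0.14 ± 0.16. Of 11 kinases, ubiquitin ligases and other regulators 9 averaged below 0, among them the PER kinases Csnk1d (-0.067 ± 0.086) and Csnk1e (-0.017 ± 0.14). Usp2, a ubiquitin protease with a rhythmic transcript, was at -0.12 ± 0.22. Of 8 rhythmic output genes 5 averaged below 0, and Noct, or nocturnin, was at 0.06, -0.51 and 0.25 in experiments 1 to 3. Nampt, which encodes an enzyme of NAD synthesis and is a CLOCK target, was at 0.0067 ± 0.098, and Id2 at 0.19 ± 0.21.

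**Figure D3:**
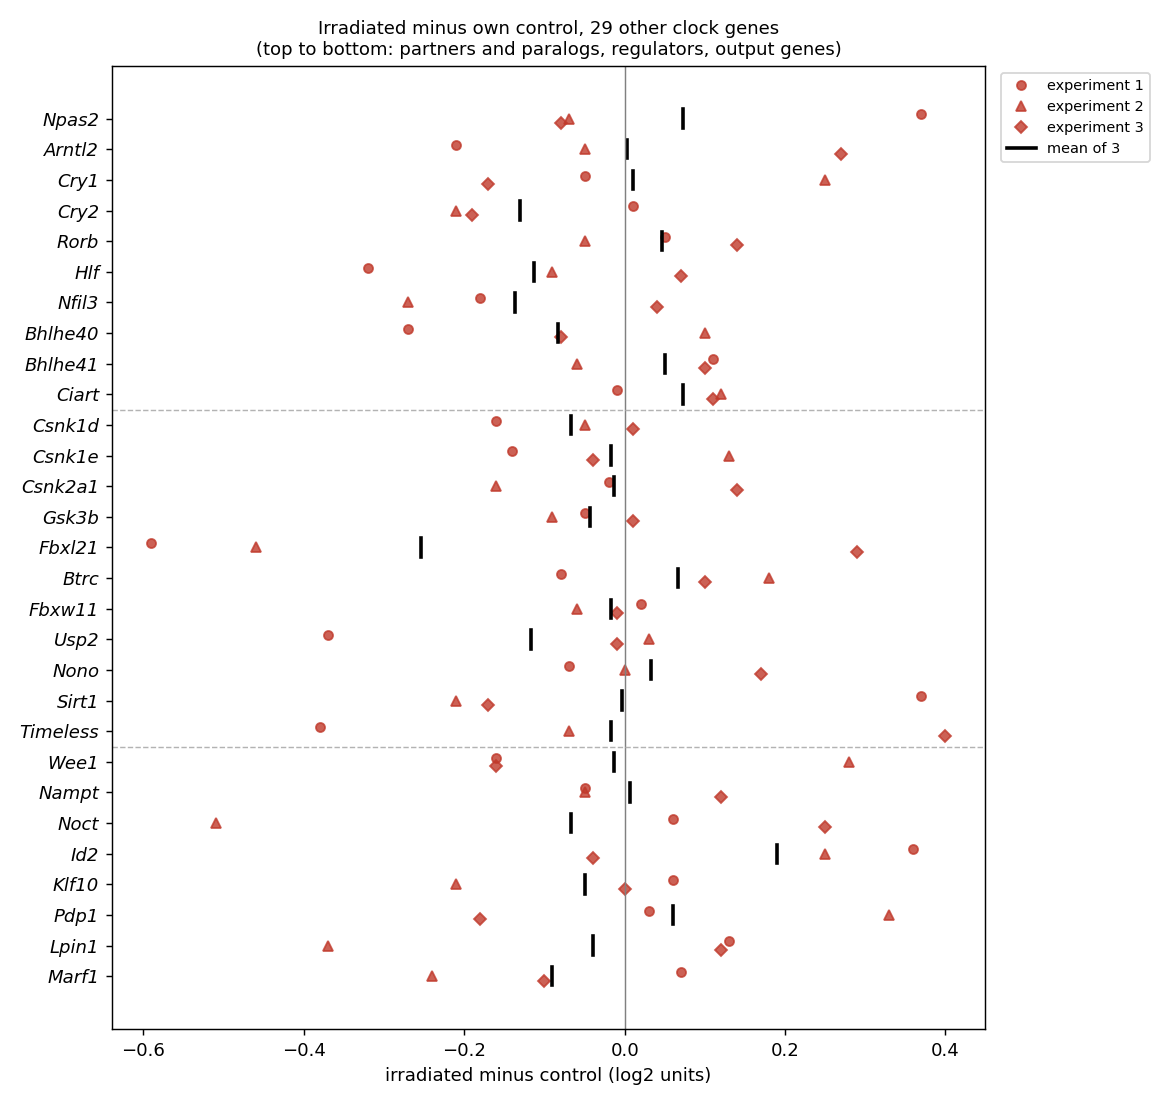
Irradiated minus own control in log2 units (horizontal axis) for 29 other clock genes in 3 groups by role, with 1 marker per experiment and a bar for the mean. Means run from -0.25 for the dim Fbxl21 to 0.19 for Id2, and no gene has all 3 markers on 1 side of 0.

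The difference between experiments is a readout that the choice of genes did not use. Each experiment had 2 cultures, and a limma F-test with irradiation as a term was fitted across all 18193 genes. It called 0 genes after Benjamini-Hochberg adjustment (0%), and thus 0 of 10 members, with a smallest adjusted p of 0.0661 over all genes. At an unadjusted p under 0.05 there were 994 genes (5.46%), and 3 of 10 members (Nr1d1, Nr1d2 and Dbp), against 0 of the 29 other clock genes.

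In the values themselves, Nr1d1, Nr1d2, Dbp and Per1 were highest in experiment 3. Nr1d1 averaged 7.23, 7.31 and 7.605 over the cultures of experiments 1 to 3, a range of 0.375 or 1.30-fold (limma F-test, Benjamini-Hochberg adjusted p = 0.907). Both cultures of experiment 3 lay above the other 4. Dbp averaged 8.015, 7.925 and 8.31, a range of 0.385 (adjusted p = 0.907 in the same limma test), and its other probe set averaged 6.57, 6.42 and 6.75. Nr1d2 averaged 9.695, 9.58 and 9.895, a range of 0.315 (adjusted p = 0.909 in limma). Its dimmer probe set averaged 4.12, 4.045 and 4.19. There the control of experiment 3 (4.06) lay below the controls of experiments 1 and 2 (4.21 and 4.13). Per1, which had only 1 probe set, averaged 8.355, 8.455 and 8.58 (adjusted p = 0.990 in limma). These 4 of 10 members had both cultures of experiment 3 above the other 4, where 5.04% of all genes did, and experiment 3 was singled out after its values were seen. Counting any experiment in either direction, 6 of 10 members had both cultures of 1 experiment apart from the other 4, where 30.6% of all genes did.

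The other members varied less between experiments or in another order. Arntl averaged 7.71, 7.585 and 7.57 and Clock 8.905, 8.83 and 8.785, both highest in experiment 1. Rora averaged 9.415, 9.31 and 9.255, also highest in experiment 1, while Per2 averaged 6.37, 6.15 and 6.335, with both cultures of experiment 2 below the other 4. Tef (8.895, 8.86 and 8.90) and Per3 (5.49, 5.445 and 5.41) had the smallest ranges, 0.040 and 0.080. Adjusted p values of these 6 genes ran from 0.948 to 1.00 in the limma F-test with Benjamini-Hochberg.

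**Figure D4:**
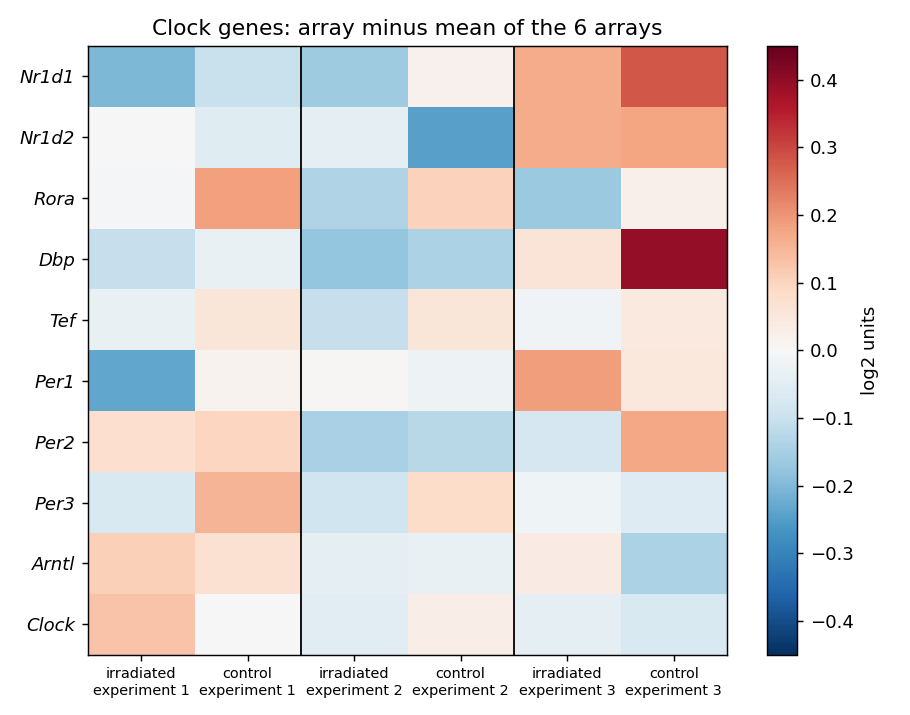
Level of each clock gene on each array minus its mean over the 6 arrays (colour scale in log2 units), with arrays grouped by experiment. Nr1d1, Nr1d2, Dbp and Per1 are above their means in both cultures of experiment 3, and the darkest cell is Dbp in the control of experiment 3, at 0.40.

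Marker lists of cell types are given beside these values. The macrophage and blood marker list averaged 11.6, 11.9 and 12.0 in experiments 1 to 3, and its irradiated minus control difference was -0.17, 0.073 and 0.14. The sum of its 6 log2 levels ran from 69.3 to 72.6 in irradiated cultures and from 70.3 to 71.7 in controls. Such a sum is the list mean on another scale and not a total amount of RNA. The mesenchymal stromal list averaged 9.07, 9.08 and 8.97, with differences of 0.081, 0.11 and 0.032, above 0 in every experiment. The stromal genes did not share this direction. Their mean differences ran from -0.027 for Eng to 0.21 for Nt5e, with Cd44 and Vcam1 also below 0. The sum of the 8 stromal log2 levels ran from 71.9 to 73.0 in irradiated cultures and from 71.6 to 72.2 in controls. The fat-cell list averaged 12.53, 12.54 and 12.50, with differences of 0.086, -0.33 and -0.018. The sum of the 5 fat-cell log2 levels ran from 61.9 to 62.9 in irradiated cultures and from 62.5 to 63.5 in controls. The part of cell composition in the clock gene values was not tested. Leaving out the control array of experiment 3 leaves that experiment only its irradiated culture. This culture read 7.55 for Nr1d1, 9.89 for Nr1d2, 8.14 for Dbp and 8.65 for Per1. Each value lay above every culture of experiments 1 and 2. The limma F-test called no member with the array included, so the fit without it could lose no call. The part of RNA quality in these levels was not tested.

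By Pearson correlation over the 6 arrays, the bright genes (median level or higher) whose pattern was most like the mean pattern of the 10 members were Dpagt1 (r = 0.984), Fam122a (0.982), Tmem106c (0.981), Pgap2 (0.978) and Lrrfip2 (0.977). They are the top of 9091 genes ranked on 6 arrays, which share the irradiated and control groups and the experiments. The mean pattern itself was lowest in the irradiated culture of experiment 2, at -0.094, and highest in the control of experiment 3, at 0.087.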

How the data were processed

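The table deposited by the authors holds a log2 value for every probe set on every array, rounded to 2 decimals. Per the submitters' processing notes they were made with RMA (background correction, quantile normalization and probe summary) and with the affy and limma packages, in versions not given in the sources used here. The base of the logarithm was taken as 2 from the range, 1.73 to 14.53, since the labels do not state it. Quantile normalization hides a change common to all transcripts, and RMA tends to understate changes of dim probe sets. Precision is limited by the 6 arrays, as there are no reads to count.

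Of 45101 probe sets, 64 are array controls, 34945 carry 1 symbol, 932 several and 9160 none. Each of 18193 genes was represented by its brightest probe set (mean of the 6 arrays), with no filter. All 10 members matched a RefSeq gene by Entrez identifier. Fits used limma 3.58.1 in R 4.3.3 (lmFit, eBayes, Benjamini-Hochberg, adjusted p under 0.05), irradiated minus control with the experiment as a block, and a moderated F-test of the experiments with irradiation as a term. The code was run on simulated data with independent noise and planted changes. Those changes were larger than any difference of the members on their brightest probe sets, so the run does not cover differences of that size. Experiments pair the cultures by the series' design text. Deviations of same-numbered arrays from group means correlated across genes at 0.15, -0.090 and -0.012.

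The members and all gene lists were chosen with earlier results of these data known. The text names all members, any measured gene of the other clock list and the 5 genes most like the members' mean pattern. Promoters are RefSeq windows of GRCm38.p6, without the bases after the start.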

Additional observations from a re-analysis of the deposited data

How the results depend on the processing

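The count of genes called for irradiated minus control was 0 in limma without the replicate block (649 at an unadjusted p under 0.05), and 0 in the other 7 settings, with a range of 0 to 0 when each experiment was left out. The block changed no call. Between experiments limma called 0 genes with centred arrays, without the control array of experiment 3 (a setting chosen after seeing the data) and when each experiment was left out (0 to 0). It called 1 without the irradiation term, 1 with probe sets averaged and 1 at or above the median level, each time Lyve1, and 2 with trended, robust eBayes (Lyve1 and Saa3), genes named after their values were seen. No member was called in any of 88 such tests, where adjusted p values ran from 0.64 to 1.00.

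The median difference of the 10 members was -0.10 on the brightest probe sets, -0.031 with probe sets averaged and -0.028 with the dimmest ones. It was -0.09 with centred arrays, and ran from -0.088 to -0.08 with each experiment left out. Members below 0 in all 3 experiments numbered 3 with probe sets averaged, 2 with the dimmest and 3 with centred arrays, against 5. The share of all genes was 12.3, 11.9 and 9.82% in these settings, against 12.8%. Leaving out each experiment, a setting chosen after seeing the data, gave 5 to 6 below 0 in both that remained, beside 24.3 to 27.6% of all genes. On the dimmest probe set Nr1d2 stood at -0.030, Per2 at 0.12, Per3 at 0.11 and Clock at -0.21, each on the other side of 0, as with probe sets averaged did Clock (-0.079), Per2 (0.0089) and Per3 (0.0067). The cause was not tested.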
